A study of Mus musculus with 33 samples.

Results

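Leukocytes leave the blood in steps, and each step has its own adhesion molecules. In this mouse liver RNA-seq series 9 of them were followed as named genes: the immunoglobulin-family ligands Icam1, Icam2 and Vcam1, the selectins Sele and Selp, the selectin ligand Selplg, and the integrin chains Itgal, Itgam and Itgb2. They were picked by symbol, with earlier results of these data known. All 9 of 9 were found among the 19169 genes of the deposited table, and all 9 passed the filter on low counts that left 14934 genes for testing.

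The groups were KI ASK1i (10 libraries, 5 female and 5 male), KI control (5 libraries, 1 female and 4 male), WT ASK1i (8 libraries, 4 female and 4 male) and WT control (10 libraries, 7 female and 3 male). KI mice had the genotype Nlrp3A350V/+CreT, a tamoxifen-inducible knock-in in which 1 of the Nlrp3 alleles carries the A350V change. Nlrp3 is a sensor whose inflammasome activates caspase-1, which processes interleukin-1 beta. WT mice were wild type, and each library was made from polyA RNA of fresh frozen liver. The labels do not say that libraries came from separate mice, so the p-values reflect library-to-library spread, which may be technical. For 6 weeks the mice ate a diet containing the ASK1 inhibitor GS-444217 (ASK1i), ASK1 being a stress-activated kinase, or control chow with placebo (control). Age, Cre promoter and tamoxifen schedule, and whether WT mice also received tamoxifen, are not stated in the labels. The comparisons address the effect of the mutant allele on the liver and of the inhibitor in each genotype.

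Selectins catch passing leukocytes and let them roll along the vessel wall. Chemokine signals then switch leukocyte integrins to a form that grips immunoglobulin-family ligands on the endothelium, and the cell stops and crawls through. Inflamed endothelium makes E-selectin, VCAM-1 and more ICAM-1 through NF-kB, while ICAM-2 is present at rest. The liver is known as a partial exception: in its sinusoids, leukocytes can stop with little need for selectins.

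Total counts ran from 28099685 to 40008114 per library. Along the first principal component (62.2% of variance) KI lay apart from WT except for KI ASK1i replicate 5, a female, which lay at -59.2 among the WT libraries (-74.1 to -45.9), whereas the other KI libraries lay from 54.8 to 103. Nlrp3 was also at a WT level in that library, with 2.10 CPM (counts scaled to library size, on TMM-normalised library sizes), against 5.51 to 11.0 CPM in the other KI ASK1i libraries and 1.62 to 4.96 CPM in WT. It was kept, and the fold changes of the 9 genes that involve KI ASK1i are also given without it. Liver is a mixture of cells, and in bulk RNA fewer or more cells of a type and less or more RNA per cell cannot be told apart. Hepatocyte markers moved with genotype: their summed level had a median of 61992 CPM in KI ASK1i, 47874 CPM in KI control, 113748 CPM in WT ASK1i and 122983 CPM in WT control. Of 8 such markers 5 fell and 1 rose on control chow, and 4 fell and 2 rose on the ASK1i diet, and their part in the results was not tested.

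The bases upstream of the annotated start are printed for Sele, Selp, Itgam and Icam1, the 4 of the 9 genes for which a promoter sequence was found (build GRCm38.p6). All 4 were higher in KI liver on both diets, as were Vcam1, Selplg, Itgal and Itgb2, for which none was found. NF-kB is the textbook inducer of Sele and Icam1. The printed sequences were those available and were not chosen by expression. Each runs 5′ to 3′ on the plus strand over 250 bases ending just before a RefSeq transcript start. For Icam1 that start is 21015940, slightly upstream of the gene start given with its values, and for Sele another RefSeq start lies further upstream, at 164039614. Capitals mark matches, on either strand, to a loose form of the NF-kB site (GGG, then any 5 bases, then CC), and to GGAAATTCC, the letters of the NF-kB element known from the human ICAM1 promoter. The second motif was chosen after the sequences had been read.
Sele, chr1:164047984-164048233: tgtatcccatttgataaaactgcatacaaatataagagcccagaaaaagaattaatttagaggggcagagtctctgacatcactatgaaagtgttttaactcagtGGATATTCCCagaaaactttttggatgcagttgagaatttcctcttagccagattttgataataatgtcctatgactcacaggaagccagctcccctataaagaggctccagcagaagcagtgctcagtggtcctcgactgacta
Selp, chr1:164115014-164115263: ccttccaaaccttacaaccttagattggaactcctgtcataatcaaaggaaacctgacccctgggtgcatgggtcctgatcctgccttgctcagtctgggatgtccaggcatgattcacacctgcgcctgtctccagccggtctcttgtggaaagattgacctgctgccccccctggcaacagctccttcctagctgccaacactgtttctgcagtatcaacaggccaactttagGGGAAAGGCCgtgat
Itgam, chr7:128062390-128062639: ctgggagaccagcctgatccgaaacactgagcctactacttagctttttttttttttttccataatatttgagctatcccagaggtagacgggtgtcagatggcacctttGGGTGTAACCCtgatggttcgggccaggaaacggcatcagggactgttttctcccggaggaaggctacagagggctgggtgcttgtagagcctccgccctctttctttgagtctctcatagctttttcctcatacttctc
Icam1, chr9:21015690-21015939: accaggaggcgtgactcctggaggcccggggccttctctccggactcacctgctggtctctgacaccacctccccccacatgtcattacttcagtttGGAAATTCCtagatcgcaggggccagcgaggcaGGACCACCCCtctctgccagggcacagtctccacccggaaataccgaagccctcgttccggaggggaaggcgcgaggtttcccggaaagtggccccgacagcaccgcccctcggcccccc

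The loose form matched all 4 windows, but it also matched 45.8% of the 32851 promoter windows of this length that were searched. Counting back from the start, the match began at -145 in Sele (minus strand), at -15 in Selp (plus strand), at -120 in Icam1 (minus strand), and at -140 and -139 in Itgam, where matches on the plus and minus strand overlap. GGAAATTCC was present in Icam1 alone of the 4, at -153, and in 0.286% of all windows. GAGGAA, a core bound by myeloid ETS factors, matched once in Sele at -107 (minus strand) and at -84 (plus strand) and -15 (minus strand) in Itgam, and in 23.3% of all windows. A match describes letters and is not evidence of binding.

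Per kilobase of transcript, Icam1 was the highest of the 9 genes in every group. In KI control the mean levels in CPM per kb were 44.0 ± 12.7 for Icam1, 33.3 ± 12.0 for Vcam1, 33.2 ± 5.11 for Itgb2, 18.8 ± 0.543 for Itgal, 17.4 ± 4.28 for Selplg, 14.2 ± 2.66 for Itgam, 3.99 ± 0.495 for Icam2, 3.23 ± 0.931 for Selp and 0.257 ± 0.123 for Sele (SD, n = 5). In WT control they were 14.3 ± 7.15 for Icam1, 10.0 ± 2.91 for Vcam1, 5.55 ± 1.22 for Itgb2, 4.72 ± 1.07 for Itgal, 2.64 ± 0.349 for Icam2, 2.41 ± 0.485 for Selplg, 0.662 ± 0.211 for Itgam, 0.382 ± 0.0947 for Selp and 0.0180 ± 0.0201 for Sele (SD, n = 10). The leading and the last genes thus kept their places, while Icam2 stood below Selplg and Itgam in KI control and above both in WT control. The bands of mean ± SD overlapped for Icam1 and Vcam1 in both groups. Itgb2 and Itgal had separate bands in KI control and overlapping bands in WT control. Sele lay apart at the bottom in each group, at a few counts per WT library.

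On control chow all 9 genes rose in KI liver relative to WT liver (edgeR quasi-likelihood test, adjusted p from 1.93e-09 to 0.000351). Itgam, a chain of the myeloid integrin Mac-1, rose most, 22.6-fold, and Icam2 least, 1.53-fold. For each of the 9 genes all 5 KI control libraries lay above all 10 WT control libraries. The whole liver transcriptome moved with genotype: 56.7% of all genes tested were called, 27.8% as higher, and 16.3% were higher with no overlap between the groups. The median log2 fold change of the 9 genes was 2.64, against -0.03 over all genes tested. On the ASK1i diet 8 of the 9 genes rose in KI relative to WT, where 59.1% of all genes were called, 30.3% as higher and 28.8% as lower. The gene that did not pass was Icam2. On this diet 0 of 9 genes were free of overlap between the groups, where 2.36% of all genes tested were higher without overlap, and replicate 5 lay within or below the WT range for every gene.

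**Figure D1:**
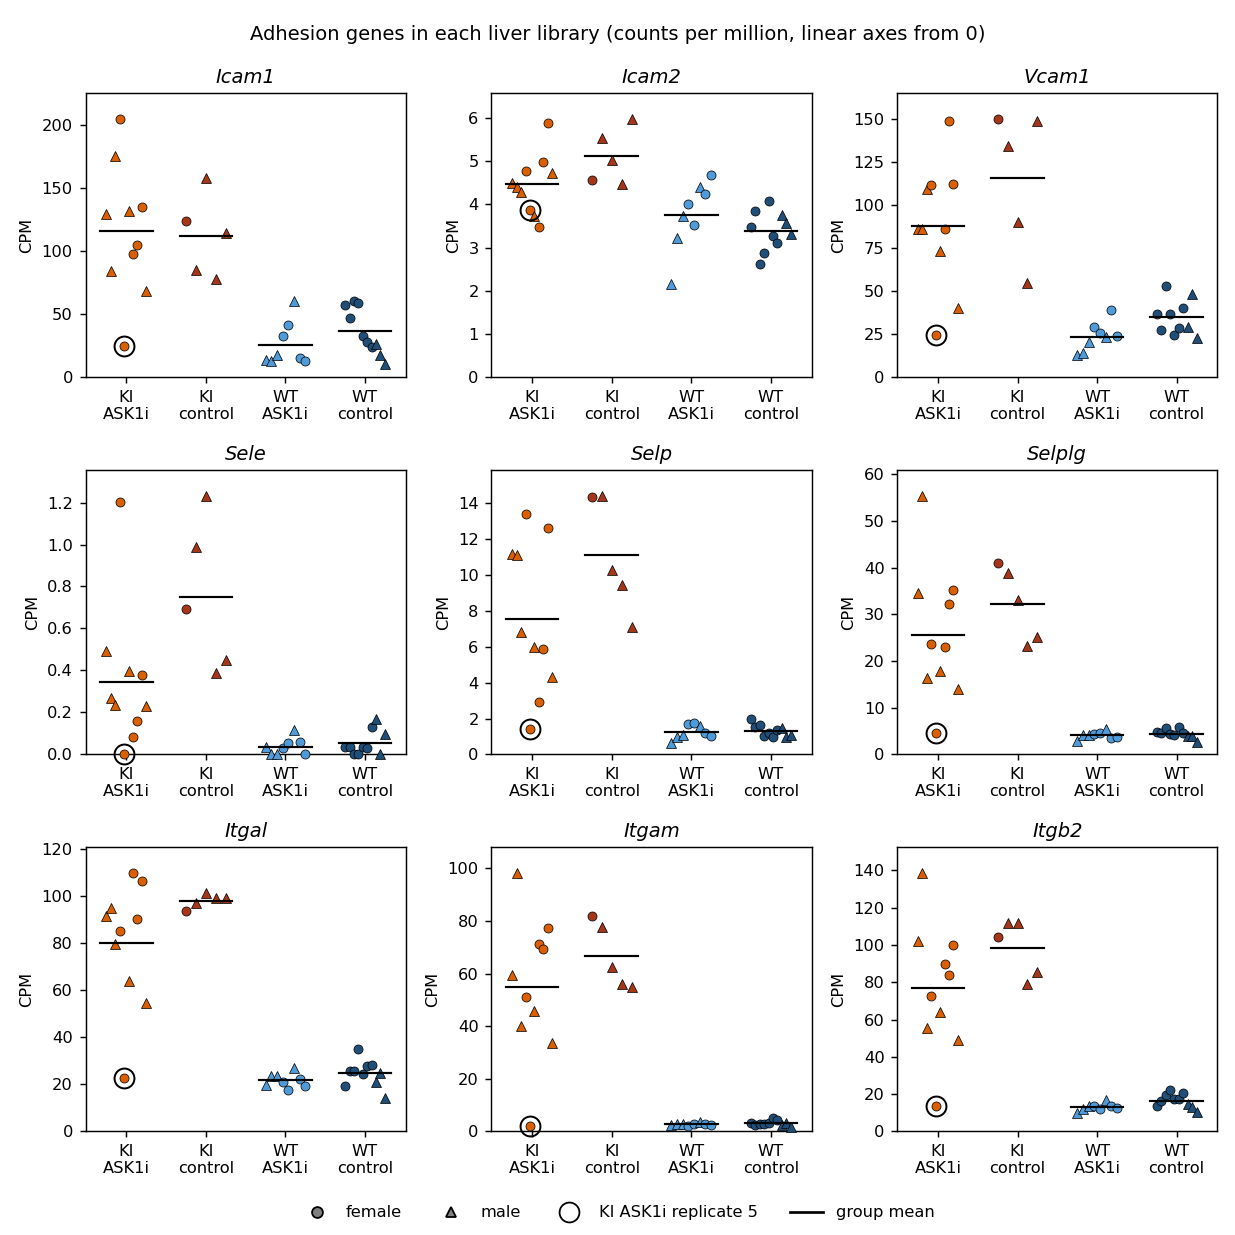
CPM of the 9 adhesion genes (linear axes from 0) in each library of KI ASK1i (n = 10), KI control (n = 5), WT ASK1i (n = 8) and WT control (n = 10); circles are females, triangles males, bars group means, and the ring marks KI ASK1i replicate 5. KI libraries lie above WT libraries for most genes, with the ringed library at the WT level.

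Icam1 encodes ICAM-1, the inducible endothelial ligand of the beta-2 integrins, also made by hepatocytes and macrophages in inflamed liver (Entrez 15894, mm10 chromosome 9, 21015960 to 21028796). In KI control its 5 libraries had 124, 84.7, 158, 77.9 and 114 CPM. In WT control the lowest, median and highest values were 10.5, 30.5 and 60.4 CPM. Every KI control library was above the highest WT control library, and the WT libraries themselves spread widely. Icam1 rose by 1.97 on the log2 scale (SE 0.39, edgeR adjusted p = 0.000107). With the inhibitor, the lowest, median and highest values were 24.6, 117 and 204 CPM in KI and 12.8, 16.6 and 60.3 CPM in WT. The rise was 2.32 (SE 0.35, edgeR adjusted p = 1.67e-06), or 2.48 (SE 0.29) without replicate 5, the single KI ASK1i library within the WT ASK1i range.

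Vcam1 encodes VCAM-1, the endothelial ligand of the alpha-4 integrins of monocytes and lymphocytes (Entrez 22329, chromosome 3, 116110020 to 116129688). Its values were 150, 134, 90.2, 55.0 and 148 CPM in KI control, against a lowest of 22.7, a median of 32.9 and a highest of 52.7 CPM in WT control. KI control replicate 4 lay just above the highest WT library, and the other 4 lay well above it. Vcam1 rose by 1.88 (SE 0.28, edgeR adjusted p = 2.53e-06). In ASK1i-fed mice the lowest, median and highest values were 24.7, 85.9 and 148 CPM in KI and 12.7, 23.7 and 39.0 CPM in WT, and the rise was 1.90 (SE 0.26, edgeR adjusted p = 3.34e-07), or 2.03 (SE 0.22) without replicate 5. All KI ASK1i libraries but replicate 5 were above all WT ASK1i libraries.

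Icam2 encodes ICAM-2, a ligand of the same integrins that resting endothelium and platelets carry (Entrez 15896, chromosome 11, 106377656 to 106382641). Its levels were low and narrow: 4.56, 5.52, 5.02, 4.48 and 5.97 CPM in KI control, and a lowest of 2.62, a median of 3.39 and a highest of 4.08 CPM in WT control. The groups did not overlap, though the lowest KI library was close to the highest WT library. It rose by 0.61 (SE 0.14, edgeR adjusted p = 0.000351). With the L code of the titles, whose meaning is not stated, in place of the title set in the model, the rise was 0.42 (SE 0.20, edgeR adjusted p = 0.108). No L code held libraries of both KI control and WT control, so that code and genotype cannot be told apart within a code on control chow. Among ASK1i libraries the lowest, median and highest values were 3.46, 4.45 and 5.89 CPM in KI and 2.16, 3.87 and 4.67 CPM in WT. The groups overlapped, with 4 of 10 KI libraries above every WT library, and the difference of 0.23 (SE 0.11, edgeR adjusted p = 0.0843) did not pass, nor did that of 0.25 (SE 0.12) without replicate 5. With each library left out in turn it ran from 0.15 without WT ASK1i replicate 2 (adjusted p = 0.211) to 0.30, and it passed without WT ASK1i replicate 7 and without KI ASK1i replicate 1P.

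Sele encodes E-selectin, which inflamed endothelium makes and which catches neutrophils and memory T cells (Entrez 20339, chromosome 1, 164048234 to 164057677). It was the scarcest of the 9 genes, so counts are given: 25, 41, 48, 14 and 18 in KI control, against 0 to 5 in the 10 WT control libraries, 3 of which had 0. In CPM this was 0.750 ± 0.358 in KI control (SD, n = 5) and 0.0525 ± 0.0585 in WT control (n = 10). All KI control libraries were above all WT control libraries, and the rise was 3.66 (SE 0.66, edgeR adjusted p = 2.58e-05). The rise was 2.84 (SE 1.14) with an adjusted p of 0.0545 when the L code replaced the title set. On the ASK1i diet the KI libraries had 0 to 39 counts and the WT libraries 0 to 4. The 0 belonged to replicate 5, and 8 of 10 KI libraries were above every WT library. The rise was 3.15 (SE 0.66, edgeR adjusted p = 0.000155), or 3.32 (SE 0.58) without replicate 5.

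Selp encodes P-selectin, which platelets and endothelium store in granules and bring to the surface on activation (Entrez 20344, chromosome 1, 164115264 to 164150026). Its values were 14.3, 14.4, 10.3, 9.43 and 7.09 CPM in KI control, against a lowest of 0.942, a median of 1.29 and a highest of 1.95 CPM in WT control. The groups stood far apart, and Selp rose by 3.16 (SE 0.33, edgeR adjusted p = 9.43e-09). Under the inhibitor the lowest, median and highest values were 1.40, 6.40 and 13.4 CPM in KI and 0.618, 1.14 and 1.76 CPM in WT. Selp rose by 2.67 there (SE 0.31, edgeR adjusted p = 2.47e-08), or by 2.82 (SE 0.23) without replicate 5, the only KI ASK1i library inside the WT ASK1i range. Platelet transcripts moved with Selp: 7 of 7 tested platelet and megakaryocyte markers rose on each diet. Their summed level ran from 5.30 to 32.7 CPM in KI ASK1i, 12.4 to 59.2 CPM in KI control, 3.18 to 6.05 CPM in WT ASK1i and 3.69 to 7.46 CPM in WT control. The lowest KI ASK1i value was that of replicate 5. Gp6 was at 0 in all WT ASK1i libraries. The part of platelets in the rise of Selp was not tested.

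Endothelial markers did not move in the same way. Of 9 vascular endothelial markers 4 rose on control chow and 0 fell, with a median log2 fold change of 0.13, and of 9 sinusoidal endothelial markers 4 rose and 2 fell, with a median of 0.19. Between the ASK1i groups 4 vascular markers rose and 2 fell, and 2 sinusoidal markers rose and 2 fell. The summed vascular markers ran from 191 to 281 CPM in KI ASK1i, 242 to 288 CPM in KI control, 178 to 224 CPM in WT ASK1i and 170 to 250.5 CPM in WT control. The summed sinusoidal markers ran from 415 to 615 CPM in KI ASK1i, 490.3 to 549.5 CPM in KI control, 439 to 535 CPM in WT ASK1i and 448 to 555 CPM in WT control. None of these endothelial markers was at 0 throughout a group. The part of endothelial cells in the rises of Icam1, Vcam1, Icam2 and Sele was not tested.

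Selplg encodes PSGL-1, once glycosylated the leukocyte ligand of P-selectin and of the other selectins (Entrez 20345, chromosome 5, 113817798 to 113830501). Its values were 41.0, 38.8, 33.1, 23.2 and 25.1 CPM in KI control, against a lowest of 2.64, a median of 4.49 and a highest of 5.90 CPM in WT control. The lowest KI control library was far above the highest WT control library. Selplg rose by 2.91 (SE 0.30, edgeR adjusted p = 1.12e-08). In the ASK1i groups the lowest, median and highest values were 4.66, 23.3 and 55.3 CPM in KI and 2.92, 4.21 and 5.34 CPM in WT, and the rise was 2.69 (SE 0.28, edgeR adjusted p = 7.61e-09), or 2.84 (SE 0.21) without replicate 5. That library was within the WT ASK1i range and the other 9 were above it.

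Itgb2 encodes the beta-2 chain CD18, which pairs with several alpha chains on all leukocytes (Entrez 16414, chromosome 10, 77530348 to 77565674). Its values were 105, 112, 112, 79.3 and 85.5 CPM in KI control, against a lowest of 10.5, a median of 16.7 and a highest of 22.1 CPM in WT control, a rise of 2.64 (SE 0.28, edgeR adjusted p = 1.21e-08). With ASK1i the lowest, median and highest values were 13.6, 78.5 and 139 CPM in KI and 10.0, 13.1 and 16.9 CPM in WT, a rise of 2.58 (SE 0.25, edgeR adjusted p = 2.90e-09), or 2.73 (SE 0.16) without replicate 5. The groups were separate on control chow, and separate on the ASK1i diet but for replicate 5.

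Itgal encodes the alpha-L chain of LFA-1, carried by lymphocytes and most other leukocytes (Entrez 16408, chromosome 7, 127296260 to 127335137). It was uniform in KI control, at 93.8, 97.3, 101, 99.2 and 99.5 CPM, and ran from 14.4 to 34.9 CPM in WT control with a median of 25.3 CPM. It rose by 2.04 (SE 0.22, edgeR adjusted p = 1.79e-08). On the ASK1i diet the lowest, median and highest values were 22.9, 87.9 and 110 CPM in KI and 17.7, 21.8 and 27.0 CPM in WT, a rise of 1.87 (SE 0.20, edgeR adjusted p = 6.95e-09), or 2.00 (SE 0.13) without replicate 5. The narrow spread of KI control was not shared by KI ASK1i.

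Itgam encodes the alpha-M chain CD11b of Mac-1, carried by neutrophils, monocytes and many macrophages (Entrez 16409, chromosome 7, 128062640 to 128128160). Its values were 81.7, 77.9, 62.7, 55.9 and 55.0 CPM in KI control, against a lowest of 1.53, a median of 2.98 and a highest of 5.12 CPM in WT control. The lowest KI control library exceeded the highest WT control library by a wide margin. Itgam rose by 4.50 (SE 0.40, edgeR adjusted p = 1.93e-09). On the ASK1i diet the lowest, median and highest values were 2.13, 55.4 and 98.2 CPM in KI and 2.17, 2.66 and 3.55 CPM in WT, a rise of 4.34 (SE 0.39, edgeR adjusted p = 9.26e-10), or 4.52 (SE 0.20) without replicate 5. Replicate 5 was below every WT ASK1i library and the other 9 KI libraries were above every one.

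Transcripts of neutrophils, monocytes and macrophages, which carry these integrins, moved with them, and lymphocyte markers did not move as one. All 12 tested neutrophil markers, all 11 monocyte and macrophage markers and all 10 Kupffer cell markers rose in KI on each diet. Summed neutrophil markers ran from 12.1 CPM (replicate 5) to 5153 CPM in KI ASK1i, 765 to 3944 CPM in KI control, 5.57 to 13.1 CPM in WT ASK1i and 6.68 to 25.8 CPM in WT control. Summed monocyte and macrophage markers ran from 249.7 CPM (replicate 5) to 2026 CPM in KI ASK1i, 1265 to 1636 CPM in KI control, 195 to 269 CPM in WT ASK1i and 168 to 408 CPM in WT control. Of 10 T and NK cell markers 6 rose and 0 fell in KI control against WT control, where 27.8% of all genes tested were higher. In KI ASK1i against WT ASK1i 4 rose and 0 fell, where 30.3% of all genes tested were higher. Of 6 B cell markers 5 fell on each diet, and Igj, the joining chain of secreted antibodies, rose between the ASK1i groups by 2.42 (SE 0.41). No neutrophil or macrophage marker was at 0 throughout a group. Their part in the rises of Selplg, Itgal, Itgam and Itgb2 was not tested.

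**Figure D2:**
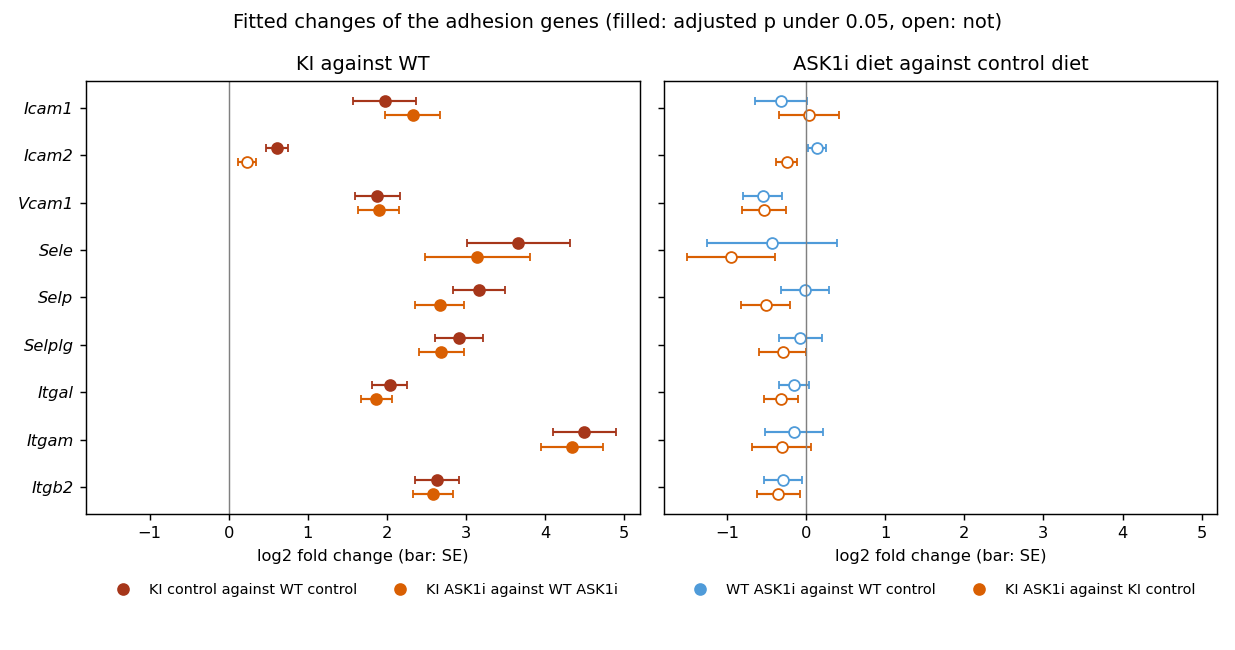
Log2 fold change with its SE for each adhesion gene, for KI against WT within each diet (left) and for ASK1i against control diet (right, in WT and in KI); filled points passed an adjusted p of 0.05. Genotype changes run from 0.23 (Icam2 on the ASK1i diet) to 4.50 (Itgam on control chow), and every diet change is open.

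None of the 9 genes passed the test between diets in either genotype. In WT, 0 of 9 genes passed, where 1.4% of all genes tested were called, 1.13% as higher and 0.268% as lower. The log2 fold changes ran from -0.55 (Vcam1) to 0.14 (Icam2), and 8 of 9 were below 0. Vcam1 was the single gene with an unadjusted p under 0.05. It had a lowest of 12.7, a median of 23.7 and a highest of 39.0 CPM in WT ASK1i, against 22.7, 32.9 and 52.7 CPM in WT control, and its change was -0.55 (SE 0.25, edgeR p = 0.0344, adjusted p = 0.313). The groups overlapped. Among libraries of code L6, the only code that holds both WT groups, Vcam1 ran from 12.7 to 29.1 CPM in 4 WT ASK1i libraries and from 28.4 to 40.0 CPM in 4 WT control libraries. Itgb2 did not overlap within that code, at 10.0 to 13.7 CPM in WT ASK1i and 14.5 to 22.1 CPM in WT control. Over all libraries its change was -0.29 (SE 0.24, edgeR adjusted p = 0.635). The share of all genes tested that did not overlap within L6 was not counted. The differences of mean log2 CPM there were -0.88 for Vcam1, -0.83 for Icam1, -0.73 for Sele, -0.59 for Itgb2 and -0.52 for Itgam. They were -0.33 for Itgal, -0.28 for Selplg, -0.18 for Selp and -0.02 for Icam2. Sex differed there too, with 1 female among the 4 WT ASK1i libraries and 3 females among the 4 WT control libraries.

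In KI, 0 of 9 genes passed, where 0.0536% of all genes were called, and 0 of 9 had an unadjusted p under 0.05. Log2 fold changes for KI ASK1i against KI control were -0.95 for Sele (SE 0.56, edgeR adjusted p = 0.532), -0.53 for Vcam1 (SE 0.28), -0.51 for Selp (SE 0.31) and -0.35 for Itgb2 (SE 0.27). They were -0.32 for Itgal (SE 0.22), -0.31 for Itgam (SE 0.37), -0.30 for Selplg (SE 0.30), -0.25 for Icam2 (SE 0.13) and 0.03 for Icam1 (SE 0.38). Thus 8 of 9 values were below 0 and all lay within about 2 SE of it. Without replicate 5 they were smaller for 8 of the 9 genes, at -0.83 (SE 0.48) for Sele, -0.43 (SE 0.23) for Vcam1 and -0.16 (SE 0.19) for Itgam, and 0.14 (SE 0.32) for Icam1. They were -0.39 (SE 0.24) for Selp, -0.23 (SE 0.17) for Itgb2, -0.21 (SE 0.15) for Itgal, -0.17 (SE 0.21) for Selplg and -0.23 (SE 0.13) for Icam2. DESeq2 and limma-voom also called 0 of 9 in each genotype. KI control entered both the KI diet comparison and the genotype comparison on control chow, so these share samples.

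The difference between the diet effects in KI and in WT passed for 0 of 9 genes and for 0% of all genes tested by edgeR. DESeq2 and limma-voom likewise called 0 of 9. Icam2 alone had an unadjusted p under 0.05, with a difference of -0.38 (SE 0.18, edgeR p = 0.0388, adjusted p = 0.576). Its rise in KI on control chow and the missed threshold on the ASK1i diet are therefore not shown to differ.

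The integrin alpha chains did not rise alike. Within a library the ratio of counts does not depend on library size, and that of Itgam to Itgal had a median of 0.650 in KI ASK1i and 0.619 in KI control, against 0.123 in WT ASK1i and 0.120 in WT control. It ran from 0.553 to 0.872 in KI control and from 0.0851 to 0.184 in WT control, with no overlap. The log2 ratio was higher in KI by 2.44 on control chow (exact two-sided permutation test, p = 0.000666, adjusted p = 0.00178 over 8 ratio tests) and by 2.17 on the ASK1i diet (exact permutation p = 0.000411, adjusted p = 0.00178), or by 2.46 without replicate 5. In KI ASK1i the ratio was 0.0939 in replicate 5, below every WT ASK1i library (0.103 to 0.161). The diet changed it by -0.26 in KI (exact permutation adjusted p = 0.852) and by 0.01 in WT (adjusted p = 0.963). The ratio thus differed between genotypes and was not shown to differ between diets.

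The inducible and the resting endothelial ligand differed in the same manner, with more spread. The ratio of Icam1 to Icam2 counts had a median of 25.5 in KI ASK1i, 19.1 in KI control, 5.57 in WT ASK1i and 8.31 in WT control. On control chow the log2 ratio was higher in KI by 1.17 (exact permutation p = 0.0147, adjusted p = 0.0293). The ranges overlapped, 15.3 to 31.3 in KI control and 3.15 to 22.9 in WT control. The permutation test had no term for sex, which was unbalanced between these groups. In WT control, median Icam1 was 47.3 CPM in 7 females and 17.8 CPM in 3 males. Without KI control replicate 1 or KI control replicate 3 the differences were 1.08 and 1.03 and the test was not passed (adjusted p up to 0.0879). On the ASK1i diet the difference was 1.95 (exact permutation p = 0.000457, adjusted p = 0.00178), or 2.15 without replicate 5. The diet changed the log2 ratio by 0.12 in KI (adjusted p = 0.852) and by -0.66 in WT (exact permutation adjusted p = 0.203).

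**Figure D3:**
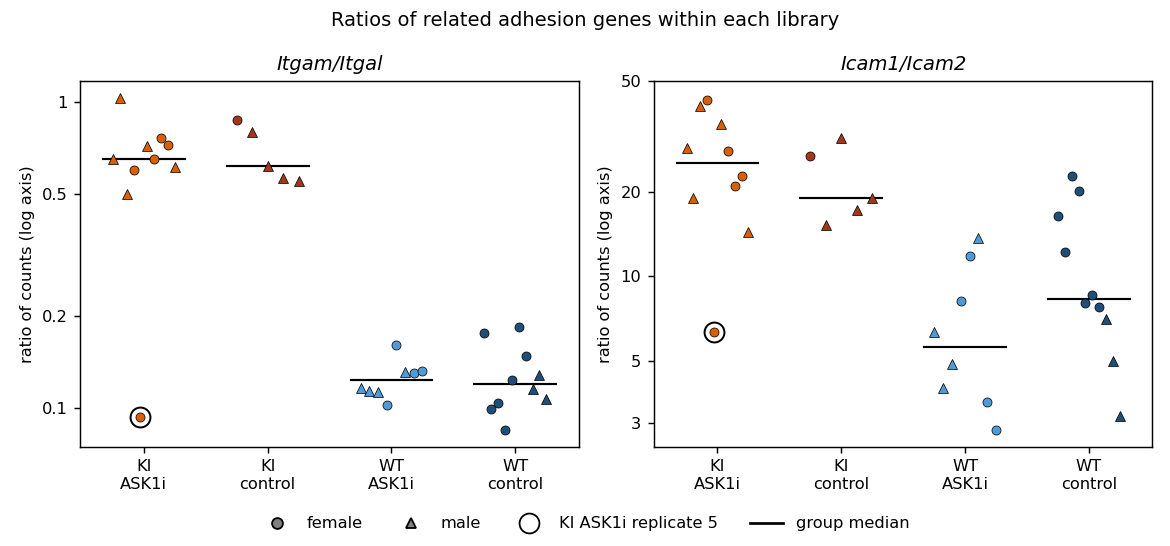
Ratio of counts of Itgam to Itgal (left) and Icam1 to Icam2 (right) in each library, on log axes; circles are females, triangles males, bars group medians, and the ring marks KI ASK1i replicate 5. The Itgam to Itgal ratio lies from 0.553 to 0.872 in KI control and from 0.0851 to 0.184 in WT control.

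Within groups Selplg and the 3 integrin chains varied together, and the other 5 genes did so less evenly. Pearson r was taken between residuals of log2 CPM after group, sex and title set over 32 libraries, leaving out replicate 5; all points share the normalisation of their library, and the values are descriptions. The highest values were 0.83 for Selplg with Itgb2, 0.80 for Selplg with Itgam, 0.73 for Itgal with Itgb2 and 0.72 for Itgam with Itgb2. Selp reached 0.65 with Icam2, 0.55 with Sele, 0.46 with Selplg and 0.45 with Vcam1, and Vcam1 reached 0.41 with Selplg and 0.35 with Itgb2. Other pairs of vessel wall genes ranged from 0.08 for Icam1 with Sele to 0.41 for Icam1 with Vcam1. Between these lay Vcam1 with Sele at 0.15, Icam2 with Vcam1 at 0.23 and Icam1 with Selp at 0.24. Icam1 with Icam2 had 0.30 and Icam2 with Sele 0.40. Icam1 stood apart from the leukocyte genes, at 0.06 with Selplg, 0.08 with Itgb2 and -0.09 with Itgam, and was closest to Vcam1, at 0.41. Sele went with the integrins little or inversely, at -0.26 with Itgal.

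**Figure D4:**
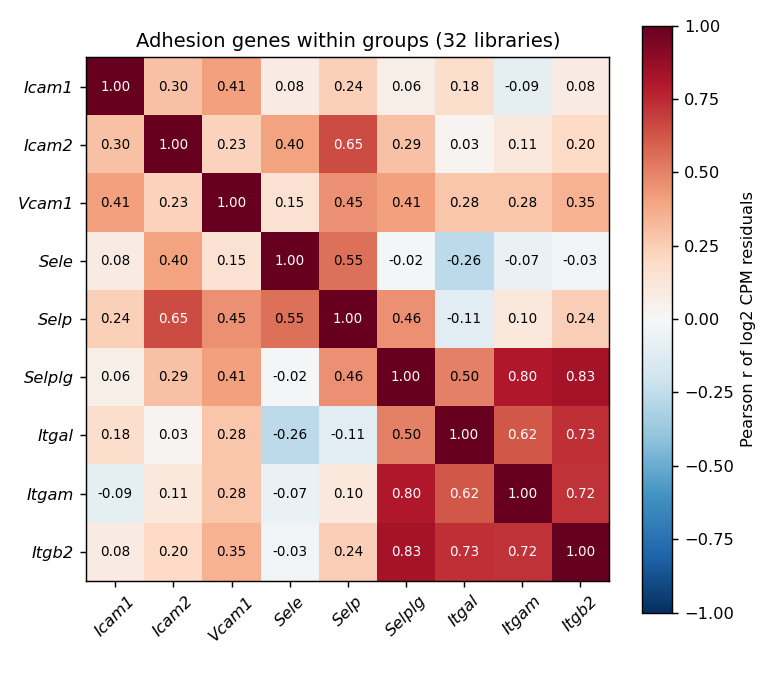
Pearson r between residuals of log2 CPM (after group, sex and title set) for each pair of adhesion genes over 32 libraries, in both colour and digits. Selplg, Itgal, Itgam and Itgb2 form a block from 0.50 to 0.83, and Icam1 reaches at most 0.41.

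The genes most like each member by the same measure (3 for each member) were sought among 11641 genes that averaged 1 CPM or more. Members, Mup genes and placeholder-named genes such as Gm and Rik models were left out. So were Xist, Ddx3y, Eif2s3y, Kdm5d and Uty, while other sex-linked genes were kept. Icam1 was nearest to Tnfaip3 (r = 0.83) and Relb (0.82), which are an inhibitor and a subunit in the NF-kB pathway and are themselves induced by it, and then to Tmem176b (0.78). These 3 also led when all 33 libraries were used. Selplg was nearest to Coro1a (0.93), Vasp (0.92) and Arhgdib (0.91), and Itgb2 to Hcls1 (0.92), Rinl (0.92) and Rac2 (0.91), most of them regulators of the actin skeleton in blood cells. Itgal was nearest to Mpeg1 (0.90), Nfam1 (0.89) and Emr1 (0.88), of which Mpeg1 and Emr1 are macrophage genes. Itgam was nearest to Wipf1, Plcb2 and Myo1f, each at 0.80. Vcam1 was nearest to Tlr7 (0.77), Itgb3 (0.77) and Apobec3 (0.74). Selp was nearest to Hmga1 (0.82), Fkbp10 (0.79) and the endothelial gene Ecscr (0.78), and Icam2 to Crtap (0.71), Snhg18 (0.69) and Ccdc85b (0.67). By ranks (Spearman rho) Ccdc85b had only 0.34 with Icam2, at place 825 among the genes compared. With all 33 libraries r fell to 0.34 for Hmga1 with Selp. For Sele, with few counts, the nearest were Upp2 (0.75), Gch1 (0.73) and Immp2l (0.69), and with all 33 libraries the values for Gch1 and Immp2l were -0.08 and 0.07.

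The other genes of the adhesion cascade were counted from 7 lists. Among other receptors and ligands of rolling, 5 of 7 tested genes rose and 1 fell in KI on control chow, with a median log2 fold change of 2.33, and 6 rose and 0 fell on the ASK1i diet. The hyaluronan receptor Cd44 rose by 2.33 (SE 0.24), leukosialin, Spn, by 2.66 (SE 0.36) and the sialomucin Cd34 by 1.87 (SE 0.24) on control chow. Podxl, a related sialomucin, fell by 0.41 (SE 0.16). With the L code in place of the title set, or among males alone, 0 genes of this list were called lower on control chow. Podxl was not called on the ASK1i diet (edgeR adjusted p = 0.108). Among enzymes that build selectin ligands, 7 of 12 rose and 2 fell on control chow (median 0.44), and 8 rose and 1 fell on the ASK1i diet. The core branching enzyme Gcnt1 rose by 2.69 (SE 0.37) and the fucosyltransferases Fut4 and Fut7 by 2.43 (SE 0.34) and 2.26 (SE 0.42), whereas the sialyltransferases St3gal3 and St3gal6 fell by 0.40 (SE 0.11) and 0.85 (SE 0.24). With the L code, and among males, only 1 gene of this list was called lower on control chow.

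Among other integrin chains, 9 of 12 rose and 0 fell on each diet, with a median of 1.00 on control chow. Itga4, the partner of VCAM-1 binding, rose by 2.45 (SE 0.27), Itgb7 by 2.30 (SE 0.28), the platelet and macrophage chain Itgb3 by 2.17 (SE 0.26) and Itgax, CD11c, by 2.56 (SE 0.33). Of the genes that switch integrins on and signal from them, 12 of 15 rose and 0 fell on control chow (median 1.05), and 12 rose and 1, Rap1a, fell on the ASK1i diet. Fermt3, kindlin-3, which integrin activation in blood cells requires, rose by 2.34 (SE 0.25), and the kinases Fgr and Syk rose by 2.90 (SE 0.26) and 1.96 (SE 0.22). Among junction and transmigration genes 10 of 13 rose and 1 fell on each diet (median 0.67 on control chow). The myeloid receptor Sirpa rose by 2.08 (SE 0.23), its ligand Cd47 by 0.76 (SE 0.09) and the junction molecule Pecam1 by 0.92 (SE 0.13), and Cd99l2 fell by 0.43 (SE 0.07).

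Among cytokines, their receptors and NF-kB genes 15 of 16 rose and 1 fell on control chow (median 1.46), and 14 rose and 1 fell on the ASK1i diet. Tnf, a cytokine that induces endothelial adhesion molecules, rose by 3.05 (SE 0.40) and its receptor Tnfrsf1a by 1.07 (SE 0.12). The NF-kB inhibitor Nfkbie rose by 2.56 (SE 0.26) and Birc3 by 1.77 (SE 0.22), and the NF-kB subunit gene Rela fell by 0.24 (SE 0.07). With the L code 0 genes of this list were called lower on either diet. Of 4 genes of adhesion molecule shedding, the proteases Adam8, Adam10 and Adam17 rose by 4.07 (SE 0.38), 0.92 (SE 0.11) and 0.80 (SE 0.11), and Timp3, an inhibitor of Adam17, fell by 0.83 (SE 0.18). These are edgeR quasi-likelihood calls, with adjusted p at most 0.0276 for each gene named on control chow. The diet comparisons called 0 genes of any of the 7 lists in either genotype, where all lists together held 79 tested genes. Without replicate 5 the counts changed between the ASK1i groups to 10 higher for other integrin chains, 15 higher for cytokine and NF-kB genes, 1 lower for rolling and 2 lower for glycosylation. On control chow they changed to 11 higher for other integrin chains and 8 higher for glycosylation. The genes named as lower were picked after their values were seen. The lists were selected with earlier results of these data known, so their counts are descriptions beside 27.8% of all genes higher and 28.9% lower on control chow.

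**Figure D5:**
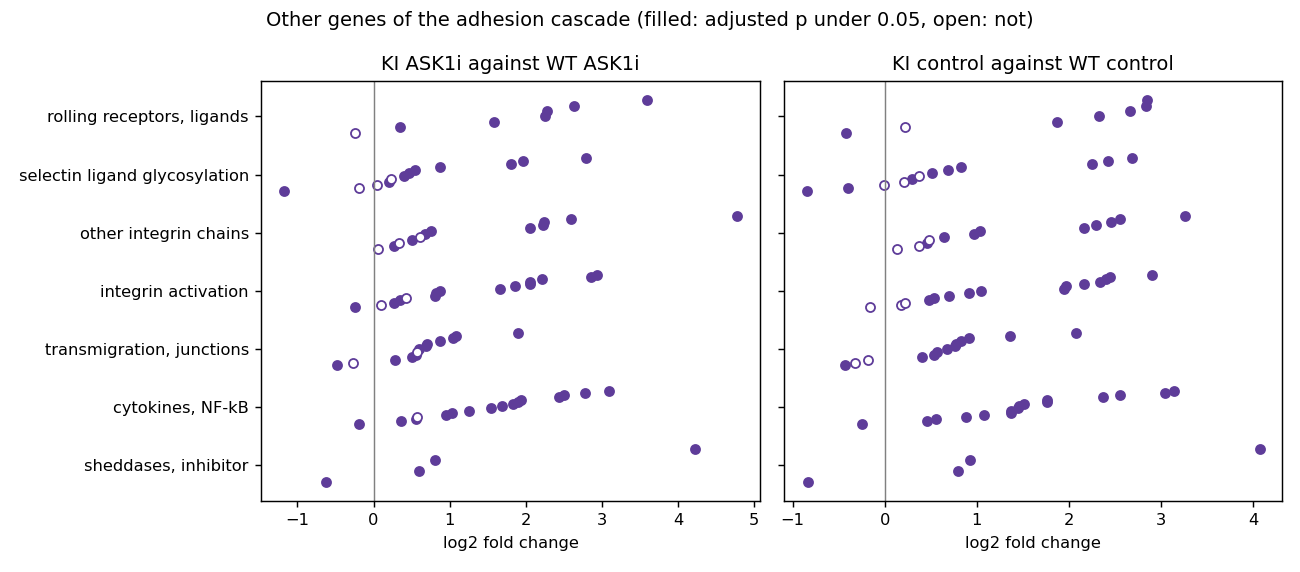
Log2 fold change of each tested gene of 7 adhesion cascade lists, for KI ASK1i against WT ASK1i (left) and KI control against WT control (right); each point is a gene, filled where the adjusted p was under 0.05. Most points of every list lie right of 0, with Adam8 among the sheddases at 4.21 and 4.07.

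Sex and genotype were unbalanced on control chow, where KI control had 1 female of 5 and WT control 7 females of 10. Among males alone, 9 of 9 genes rose on control chow, where 3316 of 14894 genes were higher and 2928 lower. Between the male ASK1i groups 8 of 9 rose, where 3930 genes were higher and 3353 lower. Median Icam1 was 99.5 CPM in 4 KI control males and 17.8 CPM in 3 WT control males, and median Itgam was 59.3 CPM and 2.43 CPM. Within code L1, which holds 4 KI ASK1i and 2 WT ASK1i libraries, the difference of mean log2 CPM was 4.42 for Itgam, 2.80 for Icam1, 2.26 for Selp, 1.57 for Sele and 0.07 for Icam2. Within code L7, with 1 KI ASK1i and 2 WT ASK1i libraries, it was 4.21 for Itgam, 1.37 for Icam1, 1.81 for Vcam1, 1.96 for Sele, 2.70 for Selp and 0.19 for Icam2. The difference for Icam1 was thus smaller in L7 than in L1, and that for Icam2 was small in both.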

How the data were processed

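Liver polyA RNA of 33 libraries was sequenced from stranded mRNA libraries, per the labels' protocols. The submitters' processing notes name CASAVA 1.8.2, STAR 2.4, RSEM 1.2.14 and mm10. The values are RSEM expected counts per gene, as the authors deposited them, not normalised. They are estimates, whole to within 1e-08 for 91.4 to 93.7% of values per library, and were rounded. The 9 members and all gene lists were chosen with earlier results of these data known.

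Counts were analysed in R 4.3.3 with edgeR 4.0.16 (TMM factors, expression filter by group, robust quasi-likelihood F test) with terms for group, sex and title set (numbered or P), over all libraries. P-values were adjusted by Benjamini-Hochberg over all 14934 genes tested, with a threshold of 0.05. Log2 CPM used a prior count of 2 and log2 fold changes one of 0.125. Ratios used counts plus 0.5 and exact two-sided permutation tests, adjusted over 8 tests, with no terms for sex or title set. Levels per kb used the transcript length of the gene's RefSeq accession. DESeq2 1.42.0 and limma 3.58.1 (voom) were alternatives, as were other scalings, filters, covariates and sample sets, a replicate block, and each library left out in turn. All 9 members were named in every comparison. From each cascade list up to 4 called genes with the smallest p were named, and for each member the 3 most alike genes. Of the genes this rule names, 1 is not reported here. Scripts were tested on simulated data. No 2 libraries of a group agreed within sampling noise: the smallest chi-square per gene among 128 pairs was 22.3 (12271 genes).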

Additional observations from a re-analysis of the deposited data

Results flagged for a closer look

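For each of the 9 genes in each of the 4 groups, 36 cases in all, the lowest and the highest library were compared with the others, and in 5 cases 1 library stood far from the others, where chance flags about 1 in 20. KI ASK1i replicate 5 was the lowest of its group for Icam1 (24.6 CPM, the others 68.4 to 204), Itgal (22.9 CPM, the others 54.5 to 110), Itgam (2.13 CPM, the others 33.5 to 98.2) and Itgb2 (13.6 CPM, the others 49.1 to 139). This is the library that lay among WT libraries in the first principal component and had a WT level of Nlrp3. WT control replicate 2P had the lowest Selplg of its group, at 2.64 CPM, where the others had 3.99 to 5.90 CPM.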

How the results depend on the processing

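Between genotypes, 7 to 9 of the 9 members were called on control chow and 7 to 9 on the ASK1i diet under every alternative, and 0 in each diet comparison and in the interaction. With the L code Icam2 and Sele were not called on control chow. Icam2 between the ASK1i groups passed at 0.28 with upper-quartile factors and 0.29 with a mean CPM of at least 1. Values that changed sign did not pass the adjusted p threshold of 0.05 in either form, and the cause was not tested. For WT ASK1i against WT control these were Selp at 0.022 with the L code, 0.11 with the replicate block and 0.0096 without KI ASK1i replicate 5, and, among males, Icam1 at 0.20, Icam2 at -0.0090 and Itgal at 0.054. For KI ASK1i against KI control they were Icam1 at -0.076 with limma-voom and -0.032 with sex alone, and with the L code Selplg at 0.075 and Itgam at 0.053. In the interaction they were Vcam1 at -0.062 with limma-voom, Sele at 0.25, Selplg at 0.26, Itgal at 0.25, Itgam at 0.48 and Itgb2 at 0.46 with the L code, Itgb2 at 0.11 with numbered titles and 0.029 without KI ASK1i replicate 5, and, among males, Icam1 at -0.20, Sele at 0.33 and Selp at 0.17. The log2 ratio of Itgam to Itgal changed sign for KI ASK1i against KI control at 0.12 among males and 0.026 without KI ASK1i replicate 5, and for WT ASK1i against WT control at -0.041 with numbered titles. That of Icam1 to Icam2 did so for WT ASK1i against WT control at 0.41 among males.

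Among males the ratio differences between genotypes missed the threshold, as so few libraries allow: Itgam to Itgal 2.42 on control chow and 2.53 on ASK1i, Icam1 to Icam2 2.06 and 2.01. With numbered titles Icam1 to Icam2 on control chow was 0.90. With each library left out in turn, Selp in WT diets ran from -0.085 to 0.077, Icam1 in KI diets from -0.10 to 0.31, the Vcam1 interaction from -0.14 to 0.12, the Itgb2 interaction from -0.27 to 0.029, Itgam to Itgal from -0.054 to 0.070 in WT diets and -0.36 to 0.026 in KI diets, and Icam1 to Icam2 from 0.99 to 1.31 on control chow and -0.0014 to 0.32 in KI diets.

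The replicate block left the members called at 9, 8, 0, 0 and 0. The numbers are not a stated pairing. Over 37 same-numbered pairs across groups, deviations of log2 CPM from group means correlated at -0.21 to 0.36 (median 0.02), over 0.1 in 14. Over 363 pairs with other numbers they correlated at -0.42 to 0.48 (median -0.0057), over 0.1 in 70. Over all genes on control chow, 4145 were higher and 4321 lower, and 2737 and 2366 with the L code. For WT diets the counts were 169 and 40, and 264 and 102 with DESeq2, 18 and 5 with the L code, 111 and 22 with the block, 491 and 210 with only the groups compared, 16 and 3 with numbered titles, and 0 among males. For KI diets 8 were lower, against 19 higher and 18 lower with DESeq2, 3 lower without covariates, 4 with RLE factors, 5 with upper-quartile factors, and 0 with the L code, the block, only the groups compared, numbered titles or males. For the interaction 0 were called, and 11 and 5 with DESeq2 and 2 lower with limma-voom. Without KI ASK1i replicate 5, 307 and 68 were called for WT diets, 2 and 10 for KI diets, and 0 and 2 for the interaction. Sele, at 0 to 5 counts in WT libraries, is limited by depth.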
